A study of Mus musculus with 23 samples.

Results

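The cytosolic ribosomal protein genes are the protein-coding genes whose symbols begin with Rpl or Rps and a digit, together with Rplp0, Rplp1, Rplp2 and Rpsa. Pseudogenes and the ribosomal S6 kinases were left out by the same rule. The rule found 86 genes among the 55401 rows of the count table: 77 core genes, each encoding a protein of the ordinary cytosolic ribosome, 8 paralogues and Rps19bp1, which binds a ribosomal protein but is not part of the ribosome. Of the 86 genes, 85 passed the filter on low counts. Rpl10l, a testis paralogue of Rpl10, was listed at 0 in every library and was not tested.

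Poly(A) RNA was sequenced from tumours of the TC2Ras line, TRAMP-C2 mouse prostate adenocarcinoma cells carrying a lentivirus for activated H-ras, grown under the skin of both flanks of male C57/BL6 mice aged 8 to 10 weeks. Every mouse received plasmid at 10 µg per muscle, delivered with ultrasound into the tibialis anterior muscle rather than into the tumour. IL27v tumours came from mice given the pTSTA-IL27pepL plasmid, named for IL-27 and the pepL peptide, and EV tumours from mice given the empty vector pTSTA-ctrl. Tumours were then kept ex vivo in cabozantinib, a kinase inhibitor, docetaxel, a microtubule-stabilising drug, anti-PD-L1, cabozantinib plus IL-27, IL-27 alone, or media. Of the 12 groups, 11 held 2 libraries, and the IL27v group with ex vivo IL-27 held 1. The labels do not say whether replicates came from separate mice, so p-values measure the spread between these 23 libraries. Tumour line markers were uneven: Vim ranged from 2590 to 5930 CPM (counts scaled to library size) in IL27v libraries and from 3140 to 6610 CPM in EV libraries. The median of the epithelial marker Epcam was 0.0615 CPM in IL27v and 0.0653 CPM in EV libraries, with highest values of 18.7 and 0.444 CPM. Cdh1 reached 92.2 CPM in IL27v and 1.74 CPM in EV libraries, while Krt8 reached 33.5 and 122 CPM.

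Together with ribosomal RNA these proteins build the subunits that translate messenger RNA in the cytosol, and their own messages are among the most abundant in growing cells. In mammals most of them start with a cytosine followed by a run of pyrimidines, the terminal oligopyrimidine motif, through which mTOR and the RNA-binding protein LARP1 set their translation and stability. The acidic proteins encoded by Rplp1 and Rplp2 form, on a base made by Rplp0, the stalk that recruits elongation factors. Several members have duties outside the ribosome, such as Rpl5 and Rpl11, which can bind and block Mdm2.

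Start regions are shown for members named in the results below, to let those with and without the start motif be compared. RefSeq promoter entries (GRCm38.p6) were found for 66 of the 86 genes, 57 of them core. Each sequence runs from 30 bases before the annotated start to 20 bases from it, read 5′ to 3′ on the gene's strand. Capitals mark a cytosine followed by at least 5 pyrimidines whose first base lies within 10 bases of the start.
Rplp2 (chr7:141447621-141447670, plus strand): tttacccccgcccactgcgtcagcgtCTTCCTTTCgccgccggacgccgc
Rps10 (chr17:27635225-27635274, minus strand): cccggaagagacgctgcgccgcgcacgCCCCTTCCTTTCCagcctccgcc
Rpl27a (chr7:109519165-109519214, plus strand): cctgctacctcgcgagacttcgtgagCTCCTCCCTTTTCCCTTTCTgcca
Rpl18 (chr7:45718041-45718090, plus strand): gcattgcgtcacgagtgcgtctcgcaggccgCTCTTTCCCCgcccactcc
Rps6 (chr4:86857348-86857397, minus strand): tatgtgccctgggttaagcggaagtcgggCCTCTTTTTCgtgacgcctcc
Rpl13 (chr8:123102320-123102369, plus strand): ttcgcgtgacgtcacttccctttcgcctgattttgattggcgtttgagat
Rpl3l (chr17:24727796-24727845, plus strand): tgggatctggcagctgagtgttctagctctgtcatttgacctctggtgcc
In Rplp2, Rps10, Rpl27a, Rpl18 and Rps6 the run lay across or beside the start. No run beginning within 10 bases of the start was found for Rpl13 or for Rpl3l, the striated muscle paralogue of Rpl3. In Rpl13 a cytosine followed by more than 5 pyrimidines begins farther upstream in the printed bases. It is neither marked nor counted by this rule. The motif was present in 28 of 57 core promoters (49.1%), against 18.5% of all 27025 promoters of the same length, and with at least 7 pyrimidines after the cytosine in 20 core promoters (35.1%), against 7.7% of all. Over the whole 300-base entries, on both strands and with overlaps between motifs allowed, the ETS core GGAAG was found in 91.2% of core promoters and 71.1% of all, TGACG in 50.9% and 21.0%, GGGCGG in 59.6% and 35.9%, and ATGGC in 50.9% and 40.9%. TATAAA was found in 8.8% of core promoters and 14.2% of all, and CACGTG in 8.8% and 7.2%.

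A second set of sequences shows why some members cannot be measured apart. The first 60 coding bases of Rps27 and its relatives, from the GENCODE annotation of GRCm38, are given with bases that differ from Rps27 in capitals.
Rps27: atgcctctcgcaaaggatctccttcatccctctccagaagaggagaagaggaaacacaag
Rps27rt: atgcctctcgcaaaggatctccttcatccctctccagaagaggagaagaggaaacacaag
Rps27l: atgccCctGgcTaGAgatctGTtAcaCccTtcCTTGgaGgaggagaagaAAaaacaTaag
Rps27rt, a retrocopy, had the same 255 coding bases as Rps27, while Rps27l differed at 18 of the 60 positions. Among the other paralogues with a coding sequence of equal length, identity was 87.9% between Rpl36al and Rpl36a, 85.3% between Rpl39l and Rpl39, and 84.8% between Rpl10l and Rpl10. Copies of this kind are common: 76 of the 77 core genes shared at least 1 stretch of 50 bases with another annotated gene or pseudogene, and 44 shared at least 50 percent of their stretches, with a median of 55.4%. How reads matching several places were assigned is not given in the sources used here, so values of single members carry that uncertainty. Reads assigned to pseudogenes with a ribosomal protein symbol made up 0.201% to 0.654% of counts. Copies annotated under other names are not in that share.

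Libraries held 47641781 to 83088346 counts. The first IL27v docetaxel library stood apart, with 30.4% of its counts on ribosomal RNA genes, against 0.127% to 3.42% in the other 22. Markers of skeletal muscle separated the libraries in a way that the labels do not state. The summed level of 16 muscle genes was 584 to 988 CPM in 10 of the 11 IL27v libraries and 29.4 CPM in the first IL27v docetaxel library, and it was 491 to 572 CPM in 3 EV libraries and 1.87 to 19.1 CPM in the other 9. Ngp, a neutrophil granule gene, reached 14.1 to 18.8 CPM in 5 libraries, both IL27v media libraries, the second EV anti-PD-L1 library and both EV cabozantinib plus IL-27 libraries, and at most 0.118 CPM elsewhere. Those 5 libraries are called Ngp-positive here. They fall unevenly over the groups, so that in the IL27v arm Ngp and the absence of drug cannot be told apart. The origin of this pattern was not tested, and a doubt about which tumour a library came from touches every comparison below.

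Rplp0 had the highest level per length, at a mean of 5530 CPM per kilobase of transcript, followed by Rpsa (4530), which encodes a small subunit protein that also serves as a laminin receptor, Rps3a1 (4040), Rpl4 (3300) and Rps4x (3030). At the low end, below every core gene, stood Rps27l with 107 CPM per kilobase, Rps19bp1 with 31.3, Rpl3l with 0.838 and Rpl39l, a testis paralogue of Rpl39, with 0.188. Rplp0 alone made up 6.07% of the summed core level. The 3 stalk genes were not level with each other: per kilobase, Rplp1 averaged 798 CPM and Rplp2 358 CPM.

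Core genes differed far more in how much they varied than a shared scale would give. Rpl4 ranged from 1800 to 4610 CPM over the 23 libraries, a span of 2.57-fold, and Rps3a1 spanned 2.93-fold. Rpl36, a small protein of the large subunit, spanned 348-fold, between 0.817 and 284 CPM. Rplp2 spanned 90.7-fold, Rplp1 90.1-fold and Rpl29 140-fold. Measured against the median core gene of the same library on the log2 scale, the SD over libraries was 1.83 for Rpl36, 1.39 for Rplp2, 1.29 for Rpl3l, 1.23 for Rplp1 and 1.03 for Rpl29. It was 0.112 for Rpl19, 0.123 for Rps20, 0.146 for Rpl23a, and 0.147 for both Rpl28 and Rpl37, which followed the core median most closely.

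**Figure D1:**
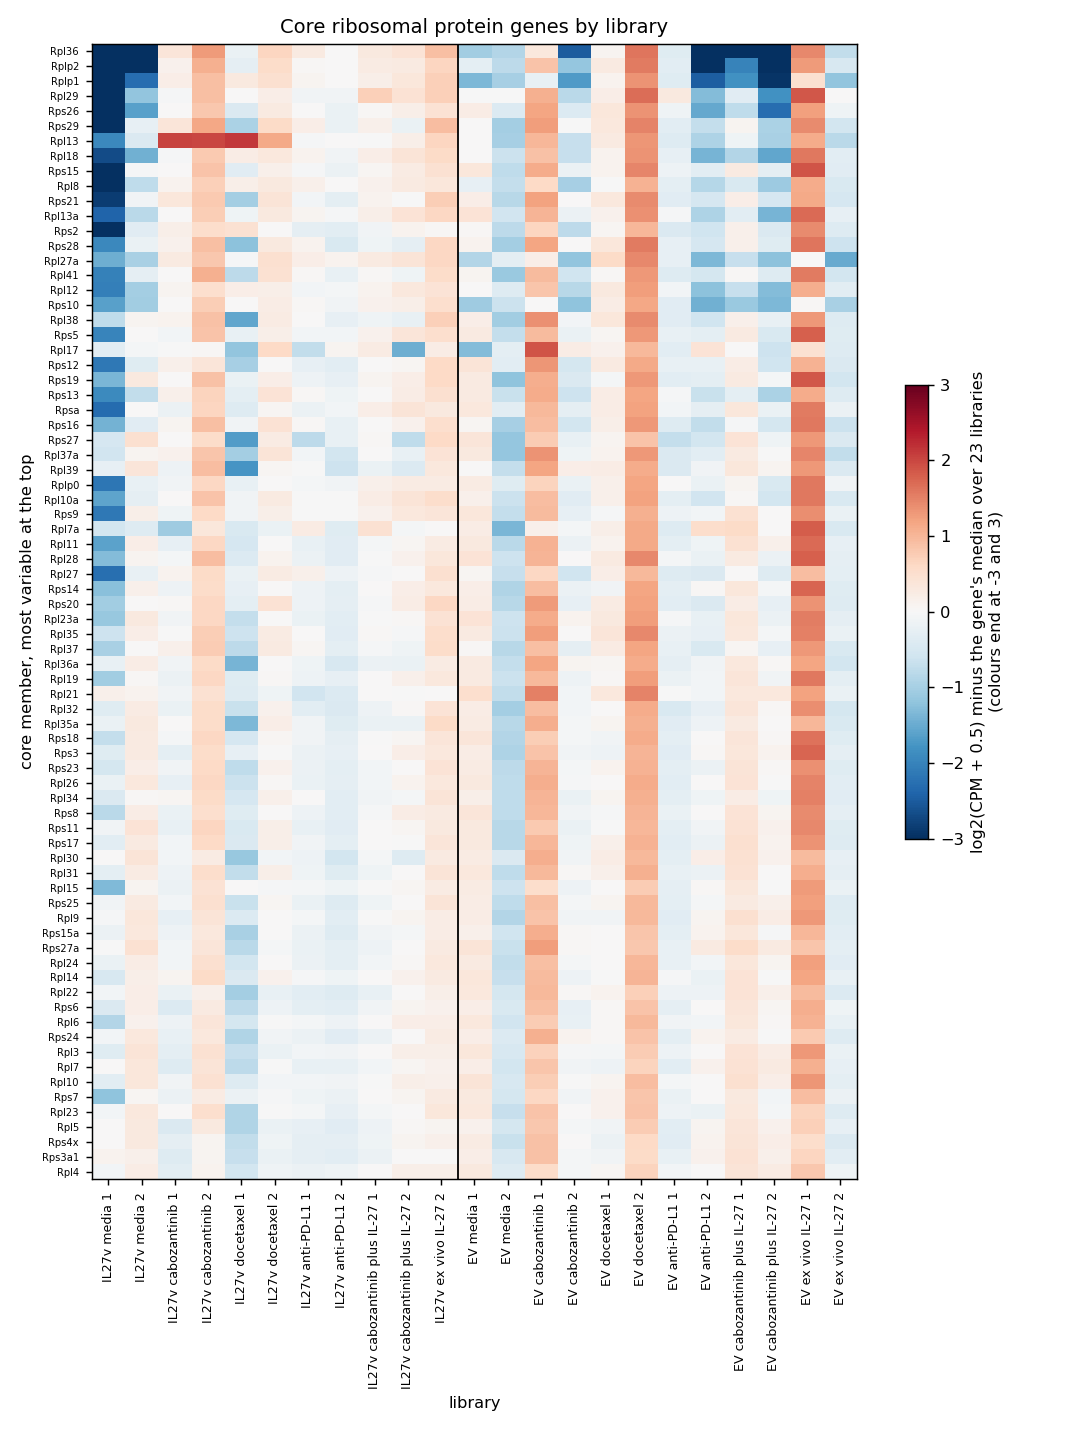
Level of 76 of the 77 core genes (rows, most variable at the top) in each of the 23 libraries (columns, IL27v left of the line and EV right of it), as log2(CPM + 0.5) minus the gene's median over libraries. Columns mostly change colour as a whole, while the top rows, led by Rpl36, Rplp2 and Rplp1, are deep blue in the Ngp-positive libraries; Rpl13 is red in both IL27v cabozantinib libraries and the first IL27v docetaxel library.

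The most variable genes resembled each other. Over the 23 libraries, the closest genes to Rplp2 in log2 CPM were Rpl36 (r = 0.982), Rpl18 (0.964) and Rps26 (0.961), and the closest to Rplp1 were Rpl36 (0.971), Rplp2 (0.951) and Rpl8 (0.936). Rplp0, their partner in the stalk, was instead close to Rpsa (0.985) and Rps15 (0.983). Rpl3 was closest to Rpl10 (0.98), Rps6 and Rpl4, and Rps4x to Rps27a (0.981), Rps3a1 and Rpl5. Over all 2926 pairs of core genes the median r was 0.813, with a range of -0.0745 to 0.994. GC-rich core genes varied more in log2 CPM: across the 77 genes, GC content and the SD of log2 CPM had r = 0.553 and rho = 0.606. For the SD relative to the core median these were 0.32 and 0.0708. Genes are not independent replicates, and these values describe 23 libraries that share their scaling.

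The 77 core genes together took 3.59% to 13.8% of a library's counts, with Wilson 95% intervals at most 0.017 percentage points wide, which cover counting error only. In media the share was 3.75% and 6.32% in IL27v libraries, against 7.19% and 4.3% in EV libraries. With cabozantinib it was 5.95% and 9.47% in IL27v libraries, against 11.2% and 5.7% in EV libraries, and with docetaxel 3.59% and 6.6% in IL27v libraries, against 6.54% and 11.5% in EV libraries. The vectors overlapped in each of these conditions, and replicates of a group stood up to 2.68-fold apart. That widest gap was in the EV ex vivo IL-27 group, with 13.8% and 5.14%, on either side of the single IL27v library at 7.67%. The 2 replicates lay close together with anti-PD-L1, at 5.86% and 5.65% in IL27v libraries and 5.54% and 5.56% in EV libraries. Cabozantinib plus IL-27 gave 6.73% and 7.11% in IL27v libraries and 7.34% and 6.0% in EV libraries. In bulk tissue, fewer cells of a type and less RNA per cell cannot be told apart.

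**Figure D2:**
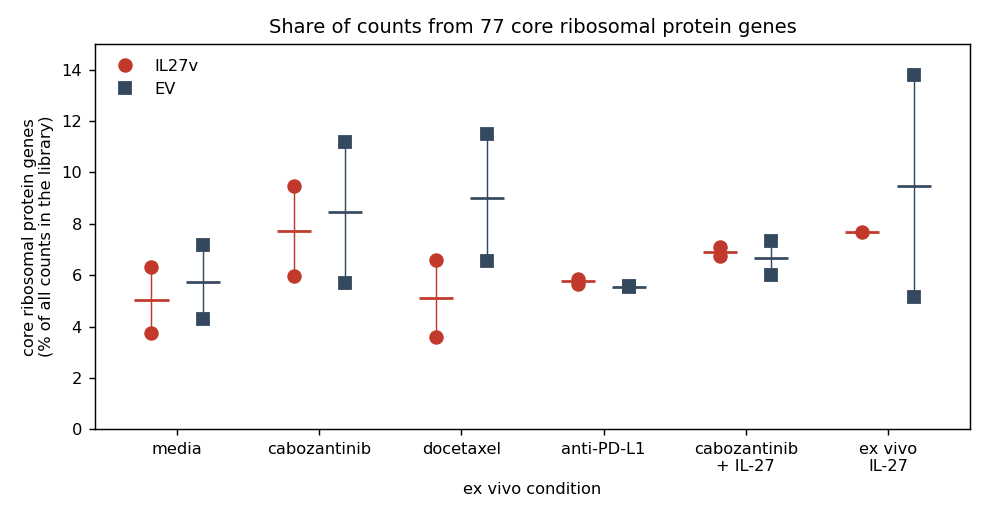
Share of all counts from the 77 core genes in each library (percent, y axis) by ex vivo condition (x axis), with IL27v left of EV; points are libraries, short bars their mean, and thin lines join replicates. EV libraries with cabozantinib, docetaxel and ex vivo IL-27 reach 11.2%, 11.5% and 13.8%, each beside a replicate at 6.54% or less.

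The core share moved with properties of the whole library. For each library the slope of log2 CPM on transcript length was taken over 24096 tested genes. Members, pseudogenes with a ribosomal protein symbol and mitochondrial ribosomal protein genes were left out. Copies annotated under other names were not left out. The median log2 level of the core genes had Pearson r = -0.948 and Spearman rho = -0.906 with that slope over 23 libraries, and r = -0.927 without the 2 libraries farthest from the median slope. Libraries in which short transcripts of other genes were high were thus those with high ribosomal protein messages, which are themselves short. Within the 11 IL27v libraries r was -0.909 and without the farthest 2 it was -0.616. Within the 12 EV libraries it was -0.966 and -0.954. For the slope on GC content, r was 0.738 and rho 0.603 over all libraries, and r was 0.536 without the farthest 2. With both trends removed from every library, the median log2 fold change of the members was -0.21 for the vectors (-0.26 before removal), 0.54 for cabozantinib (0.66), 0.38 for docetaxel (0.50), 0.03 for anti-PD-L1 (0.03), 0.28 for cabozantinib plus IL-27 (0.29) and 0.62 for ex vivo IL-27 (0.81).

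**Figure D3:**
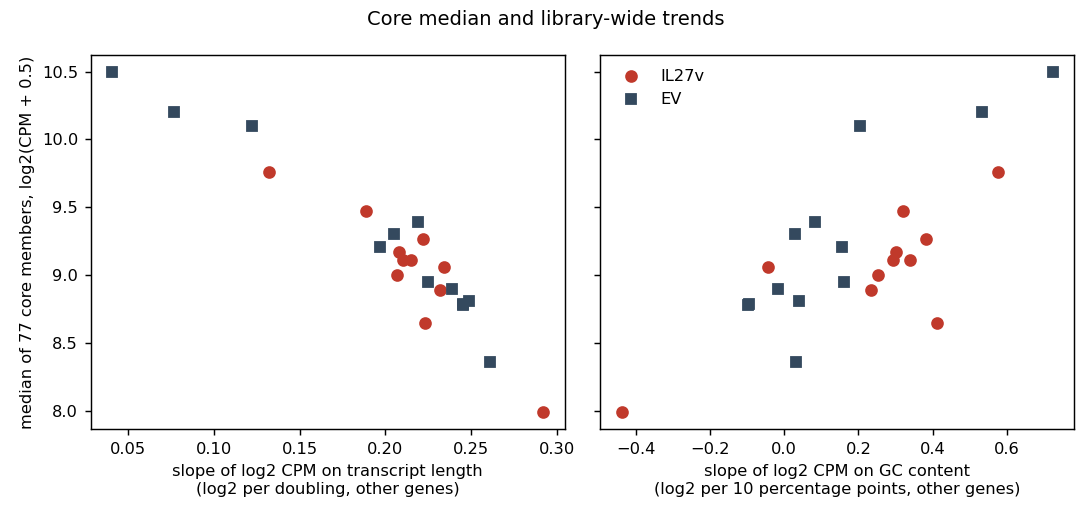
Median log2(CPM + 0.5) of the 77 core genes in each library (y axis) against the slope of log2 CPM on transcript length (left, per doubling) and on GC content (right, per 10 percentage points) over 24096 other genes. Red circles are IL27v and dark squares EV libraries; the level falls along the length slope between 10.5 in the first EV ex vivo IL-27 library and 7.99 in the first IL27v media library.

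The vector comparison asks how tumours of IL-27 treated mice differed from those of empty vector mice, over the 6 ex vivo conditions. Of the 85 tested members, 1 rose and none fell at an adjusted p under 0.05 in edgeR's quasi-likelihood test with Benjamini-Hochberg adjustment, which is 1.18% of members, against 2.28% of all 24440 genes called higher and 0.671% called lower. Unadjusted p was under 0.05 for 2 members in each direction, against 8.82% of all genes higher and 5.65% lower, and DESeq2 called 1, among 1962 genes. The log2 fold change was below 0 for 74 of the 85 members, with a median of -0.26, against 0.01 over all genes. Leaving out any 1 library moved that median between -0.36 and -0.11. Fitting the muscle and Ngp pattern of the libraries as a term, beside additive vector and exposure terms, gave -0.55. It gave 0.07 once the first IL27v docetaxel library was also left out, so the direction of the members as a list turned with that choice. Few libraries tell vector and pattern apart in these fits. All libraries with muscle genes but without Ngp were IL27v, and all with few muscle genes were EV, except the first IL27v docetaxel library. Without it, only the Ngp-positive libraries hold both vectors, and the fitted vector effect rests on them. No core gene passed the threshold: Rps6, a target of the S6 kinases, had 957, 1490 and 1990 CPM as lowest, median and highest in IL27v libraries and 1200, 1720 and 3540 CPM in EV libraries. Its log2 fold change was -0.38 ± 0.19 (SE, adjusted p = 0.39).

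The gene that rose was Rpl3l, which replaces Rpl3 in the ribosomes of heart and skeletal muscle. Its levels were 1.62 and 1.16 CPM in IL27v media libraries, 1.91 and 1.32 with cabozantinib, 0 and 2.08 with docetaxel, 2.25 and 1.29 with anti-PD-L1, 1.29 and 1.89 with cabozantinib plus IL-27, and 1.67 with ex vivo IL-27. In EV libraries it was 0 in 9 of 12, and 0.883 CPM in the second anti-PD-L1 library, 1.15 and 1.41 CPM in those with cabozantinib plus IL-27. A count of 0 allows up to 0.051 CPM in these EV libraries. The fitted log2 fold change was 6.79 ± 1.04 (SE, adjusted p = 0.0048, edgeR), which depends on the prior count where libraries are at 0. Rpl3l was detected in exactly the 13 libraries with a muscle sum above 100 CPM and was at 0 in the 10 others, the first IL27v docetaxel library among them. In the same comparison 15 of the 16 muscle genes rose, with Acta1 at 5.44 ± 0.74 and Ckm at 7.15 ± 0.99, and with the muscle and Ngp pattern as a term Rpl3l had 0.12 (adjusted p = 1). Few libraries tell vector and pattern apart in that fit. The call was also lost without the second IL27v docetaxel library (count 0, adjusted p = 1). Rpl3 itself had 1270, 1940 and 2800 CPM as lowest, median and highest in IL27v libraries and 1480, 2220 and 5030 CPM in EV libraries, a log2 fold change of -0.30 ± 0.19 (adjusted p = 0.57).

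In media alone, the vector effect without any drug, no member and no other gene passed the threshold (0%), with 8 members lower (9.41%) and 2 higher at an unadjusted p under 0.05, against 4.82% of all genes lower and 4.21% higher. DESeq2 called 3 members, among 803 of 24440 genes. Rplp2 was at 5.17 and 14.5 CPM in IL27v libraries, against 128 and 91 CPM in EV libraries, a log2 fold change of -3.47 ± 0.93 (adjusted p = 0.19). Rpl36 was at 0.817 and 7.62 CPM in IL27v libraries, against 45.1 and 50.8 CPM in EV libraries (-3.51 ± 1.20, adjusted p = 0.30). Rps26 was at 39.6 and 202 CPM, against 739 and 473 CPM (-2.33 ± 0.75, adjusted p = 0.27). The groups, of 2 libraries each, did not overlap for these 3 genes, which were named for their small p in this comparison. How many of all genes separate these groups was not counted. Both IL27v media libraries are Ngp-positive. Over all members the median was -0.01, against 0 over all genes. It was -0.51 without the second IL27v media library and 0.33 without the first EV media library, so the list had no stable direction.

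Docetaxel was compared with media over both vectors, as were the other exposures, and all of these comparisons share the same 4 media libraries. With docetaxel 5 of the 85 members rose and none fell (5.88% higher), against 1.76% of all genes called higher and 0.0286% called lower, and 18 members (21.2%) had an unadjusted p under 0.05, all higher, against 10.5% of all genes higher and 4.81% lower. DESeq2 called 10, among 1693 genes. Rplp1 was at 533 and 616 CPM in IL27v docetaxel libraries and 474 and 1120 CPM in EV docetaxel libraries, against 12.4 and 89.8 CPM in IL27v media and 173 and 218 CPM in EV media. Its log2 fold change was 2.76 ± 0.59 (SE, adjusted p = 0.027, edgeR quasi-likelihood test). Rplp2 was at 130, 232, 191 and 469 CPM with docetaxel, against 5.17, 14.5, 128 and 91 CPM in media in the same order of libraries (2.90 ± 0.64, adjusted p = 0.031). Every docetaxel library was above every media library for both genes, narrowly so for Rplp2.

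The other 3 called members belong to the body of the subunits. Rps10, a small subunit protein, was at 342 and 401 CPM in IL27v and 399 and 759 CPM in EV docetaxel libraries, against 111 and 167 CPM in IL27v media and 164 and 218 CPM in EV media (1.51 ± 0.33, adjusted p = 0.029). Rpl13, of the large subunit, was at 1320 and 673 CPM in IL27v and 364 and 763 CPM in EV docetaxel libraries, against 79.2 and 225 CPM in IL27v media and 304 and 152 CPM in EV media (2.01 ± 0.47, adjusted p = 0.039). Rpl27a, also of the large subunit, had 1.54 ± 0.37 (adjusted p = 0.045), with 390 to 1090 CPM with docetaxel and 144 to 325 CPM in media. Docetaxel and media libraries did not overlap for any of the 3. Rpl36 had the highest fold change, 3.38 ± 0.84, with adjusted p = 0.052, and did not pass. In all, 10 members had every docetaxel library above every media library, against 5.14% of all genes.

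**Figure D4:**
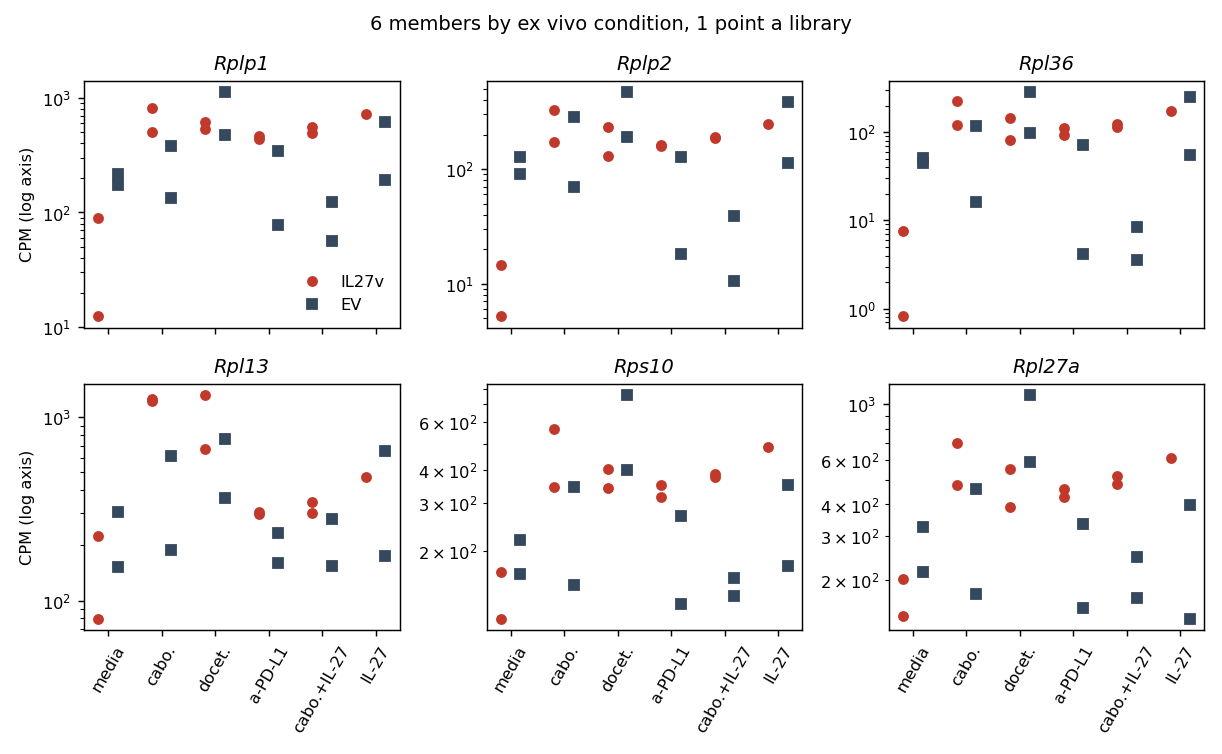
CPM (log axis) of Rplp1, Rplp2, Rpl36, Rpl13, Rps10 and Rpl27a in each library by ex vivo condition, IL27v (red circles) left of EV (dark squares). The lowest points of the first 3 genes are the IL27v media, EV cabozantinib plus IL-27 and second EV anti-PD-L1 libraries, and for Rplp2 they lie between 5.17 and 39.1 CPM.

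All 5 fold changes stayed above 0 on leaving out single libraries, though the calls did not hold. Such fits never leave out both Ngp-positive IL27v media libraries together. On leaving out any 1 library the docetaxel fold change lay between 2.33 and 3.78 for Rplp1, 2.5 and 3.36 for Rplp2, 1.22 and 1.71 for Rps10, 1.69 and 2.48 for Rpl13, and 1.25 and 1.72 for Rpl27a. With vector and exposure as additive terms no gene in the table was called, and the fold changes were 2.36, 2.06, 1.54, 1.9 and 1.57 in the same order of genes. With the muscle and Ngp pattern as a further term no gene was called either, and they were 1.68, 1.26, 1.07, 1.71 and 1.07. Each of the 5 was lower there than in the main fit. No member was called without the first IL27v media library, the first IL27v docetaxel library, either EV media library or the second EV docetaxel library. The count also fell without the second IL27v docetaxel library or any 1 of the IL27v anti-PD-L1 or cabozantinib plus IL-27 libraries. It rose without the second IL27v media library, and the share of all genes called is not given for these fits. The abundant members differed among themselves, and none passed: Rplp0 had 0.79 (adjusted p = 0.36), Rpsa 0.67 (adjusted p = 0.47), Rpl4 1.1e-05 and Rpl3 -0.03. The median member had 0.50, against 0 over all genes. Across the 77 core genes the docetaxel fold change had r = 0.59 with GC content. After the trends on GC content and length were removed from every library, 5 members were called and the median was 0.38. In that fit 235 of all 24440 genes were called, 232 of them higher. The keratinocyte genes Sfn, Sprr1a and Krt10 also rose with docetaxel, and the summed keratinocyte level was 3870 and 3610 CPM in IL27v docetaxel libraries, against 72.9 and 11.9 CPM in IL27v media, and 703 and 1880 CPM in EV docetaxel libraries, against 172 and 482 CPM in EV media. Their part in the ribosomal protein result was not tested.

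**Figure D5:**
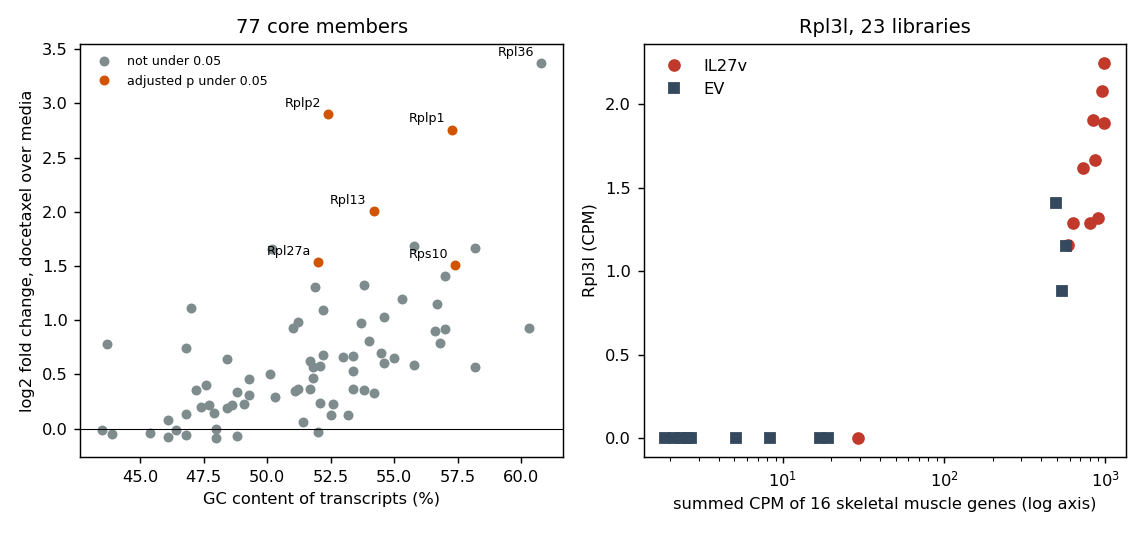
Left, log2 fold change of docetaxel over media against transcript GC content for the 77 core genes, with the 5 called genes in orange. Right, Rpl3l in CPM against the summed CPM of 16 muscle genes (log axis) in the 23 libraries: 0 in the 10 libraries with a sum of 29.4 CPM or less, and 0.883 to 2.25 CPM in the 13 with 491 CPM or more.

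With cabozantinib the members stood higher as a list, but none passed the threshold. The log2 fold change was above 0 for 84 of 85 members, with a median of 0.66, against 0.000605 over all genes, of which 0% were called. Unadjusted p was under 0.05 for 27 members (31.8%), all higher, against 7.69% of all genes higher and 2.82% lower, and DESeq2 called 5 members, among 295 genes. With the muscle and Ngp pattern as a term 2 members had an unadjusted p under 0.05 and the median was 0.46, and without the first EV cabozantinib library the median was 0.335. Rplp2 was at 174 and 330 CPM in IL27v and 284 and 70 CPM in EV cabozantinib libraries, a log2 fold change over media of 2.69 ± 0.63 (adjusted p = 0.30). Rpl13 followed with 1.92 ± 0.47 (adjusted p = 0.31), at 1250 and 1220 CPM in IL27v and 611 and 189 CPM in EV libraries. In the second EV cabozantinib library both genes lay within the media range, and of all members 1 had every cabozantinib library above every media library, against 2.06% of all genes. Without the second IL27v media library the median was 0.92.

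With ex vivo IL-27, in 3 libraries, the members again stood higher and none passed. The descriptions of these 3 samples repeat 1 column name, and the libraries were assigned by their titles. The log2 fold change was above 0 for 84 of 85 members, with a median of 0.81, against -0.03 over all genes, and no gene was called (0%). Unadjusted p was under 0.05 for 31 members (36.5%), all higher, against 8.68% of all genes higher and 3.22% lower, and DESeq2 called 5, among 619 genes. With the muscle and Ngp pattern as a term 3 members had an unadjusted p under 0.05 and the median was 0.63. Rplp2 was at 247 CPM in the IL27v library and 382 and 114 CPM in the EV libraries (2.92 ± 0.67 over media, adjusted p = 0.19). Rpl36 was at 174 CPM in the IL27v library and 253 and 55.7 CPM in the EV libraries (3.52 ± 0.89, adjusted p = 0.20). The first EV library was high for nearly every core gene and the second was not. The median was 1.13 without the second one and 0.24 without the first. More members were called without the second one or without the second IL27v media library. The share of all genes called is not given for those fits.

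Neither anti-PD-L1 nor cabozantinib plus IL-27 gave a called member over both vectors. With anti-PD-L1 none of the members was called (0% of all genes), 4 had an unadjusted p under 0.05 (4.71%, all higher), against 4.29% of all genes higher and 1.55% lower, and DESeq2 called 0 members and 105 genes. The median was 0.03, with 46 members above 0, and -0.15 with the muscle and Ngp pattern as a term. With cabozantinib plus IL-27 none was called, against 0.00409% of all genes called lower, and DESeq2 called 0 members and 63 genes. Of the members 1 had an unadjusted p under 0.05 (1.18%, higher), against 3.05% of all genes higher and 1.42% lower, and the median was 0.29 with 81 members above 0. It moved between 0.09 and 0.56 on leaving out 1 library, being lowest without the first IL27v media library, and was 0.05 with the muscle and Ngp pattern as a term. Within IL27v tumours 1 member, Rplp2, was called with the combination, against 0.896% of all genes called higher and 0.00818% lower, and 12 members (14.1%) were higher at an unadjusted p under 0.05, against 7.93% of all genes higher and 1.96% lower. DESeq2 called 7 there, and its number among all genes in that comparison is not given here. The edgeR count there changed on leaving out any library but the first EV cabozantinib one. For those fits the share of all genes called is not given. Within EV tumours none was called, against 0% of all genes called higher and 0.00409% lower, with 1 member higher and 2 lower at an unadjusted p under 0.05. Rplp1 had 1.62 ± 0.57 with anti-PD-L1 (adjusted p = 0.68) and 1.12 ± 0.56 with cabozantinib plus IL-27 (adjusted p = 0.88). Of the EV libraries, 1 of the 2 with anti-PD-L1 and both with the combination are Ngp-positive.

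Whether an exposure acted differently in the 2 vectors was tested as a difference of differences. For cabozantinib plus IL-27 it was positive for 2 members (2.35%), against 1.43% of all genes called higher and 0.0327% called lower. Rplp2 was at 188 and 192 CPM with the combination in IL27v libraries, against 5.17 and 14.5 CPM in IL27v media. In EV libraries it was at 39.1 and 10.6 CPM with the combination, against 128 and 91 CPM in media. Its log2 fold change was 4.27 ± 0.96 in IL27v and -2.14 ± 0.88 in EV tumours, a difference of 6.41 ± 1.30 (adjusted p = 0.020, edgeR). Rpl36 was at 115 and 125 CPM with the combination in IL27v libraries and 8.45 and 3.56 CPM in EV libraries, and its difference was 7.83 ± 1.73 (adjusted p = 0.031). Next in order, without passing, were Rplp1 (4.48 ± 1.16, adjusted p = 0.069), Rps26 (3.77 ± 1.05, adjusted p = 0.095) and Rpl18 (3.14 ± 0.90, adjusted p = 0.11).

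The libraries low for these genes in that test were the IL27v media and the EV cabozantinib plus IL-27 libraries, all 4 of them Ngp-positive. Over the 5 Ngp-positive libraries Rplp2 ranged from 5.17 to 39.1 CPM, against 158 to 330 CPM in the 8 other libraries with muscle genes and 70 to 469 CPM in the 10 with few. Rpl36 ranged from 0.817 to 8.45 CPM in the Ngp-positive libraries, against 93.3 to 226 and 16.1 to 284 CPM in the others. The 2 sides did not overlap for either gene. Both genes were picked by their call in that test, which holds 4 of these 5 libraries. The share of all genes without overlap was not counted. Rpl4, the core gene with the narrowest span, had 2460 to 3450 CPM in Ngp-positive libraries and 1800 to 4610 CPM elsewhere. In that test 3 of the 10 neutrophil granule genes, a list that holds Ngp, were called lower, against 0.0327% of all genes. The median over the tested genes of that list was -10.4. The Ngp-positive libraries were chosen by Ngp itself, so for that gene the direction was given in advance. Ngp-positive libraries and the vector by exposure pattern cannot be told apart here. No member was called without the first IL27v media library, the second EV media library, or any 1 of the 4 cabozantinib plus IL-27 libraries. On leaving out any 1 library the difference lay between 5.75 and 7.63 for Rplp2 and between 7.15 and 10.2 for Rpl36.

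The remaining 4 interactions gave no called member in edgeR, against 0.0205% of all genes called higher for cabozantinib and for docetaxel and 0% for the other two. At an unadjusted p under 0.05, 5 members were higher and none lower with cabozantinib, against 6.05% and 1.61% of all genes. With docetaxel 1 was higher and 2 lower, against 4.55% and 1.6%, and with anti-PD-L1 6 were higher and 1 lower, against 5.06% and 2.56%. With ex vivo IL-27 4 were higher, against 2.88% of all genes higher and 1.26% lower. DESeq2 called 8 members over all 5 interactions, each of which had between 40 and 1088 called genes. Within IL27v tumours 4 members rose with cabozantinib, against 1.87% of all genes called higher and 0.0123% lower: Rpl36 at 5.36 ± 1.31, Rplp2 at 4.68 ± 0.98, Rplp1 at 3.70 ± 0.87 and Rpl13 at 3.02 ± 0.69. With docetaxel 3 rose, against 2.7% of all genes called higher and 0.0941% lower, with Rplp2 at 4.20 ± 0.96, Rplp1 at 3.49 ± 0.87 and Rpl13 at 2.71 ± 0.68. Within EV tumours no gene was called higher in either (0%), and 2 members (2.35%) with cabozantinib and 3 (3.53%) with docetaxel were higher at an unadjusted p under 0.05, against 1.1% and 2.11% of all genes. All media and drug libraries of these 2 EV comparisons have a muscle sum of at most 19.1 CPM and Ngp of at most 0.118 CPM, and there Rplp2 had 0.69 ± 0.84 with cabozantinib and 1.59 ± 0.86 with docetaxel. The list in EV tumours had medians of 0.65 with cabozantinib, 0.88 with docetaxel and 0.90 with ex vivo IL-27, with 84, 84 and 82 members above 0. In the IL27v cabozantinib comparison no call was left without the first IL27v media or the second IL27v cabozantinib library, and 1 without the first IL27v cabozantinib library or any 1 of the IL27v anti-PD-L1 or combination libraries. The count also moved without several other libraries, and the share of all genes called is not given for these fits. In the IL27v docetaxel comparison none was left without the first IL27v media library or either IL27v docetaxel library, and 1 without either IL27v combination library. The count rose without either EV ex vivo IL-27 library or the second IL27v media library.

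Members with duties outside the ribosome gave no call. Rpl5 had 1150, 1920 and 2630 CPM as lowest, median and highest in IL27v libraries and 1480, 2300 and 3740 CPM in EV libraries, and Rpl11 had 181, 525 and 847 CPM against 312, 598 and 1770 CPM. Their log2 fold changes between vectors were -0.30 and -0.44 (adjusted p = 0.50 and 0.51). Rpl22, an RNA-binding protein of the large subunit, had -0.39 (adjusted p = 0.34). Its paralogue Rpl22l1 had -0.01, with 37.6 to 105 CPM in IL27v libraries and 27.4 to 135 CPM in EV libraries. Rpl38, known in the mouse for the translation of Hox messages, had 0.97 with cabozantinib and 1.00 with ex vivo IL-27 (adjusted p = 0.47 and 0.43). Rpl10a had 1.20 with ex vivo IL-27 (adjusted p = 0.32) and Rps25 had 0.56 (adjusted p = 0.53). Rps27a, which is made as a fusion with ubiquitin, had 0.37 with cabozantinib and -0.06 with docetaxel (adjusted p = 0.65 and 1), while Rps4x, the X-linked small subunit gene, had 0.20 and -0.08.

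Paralogues did not follow their core partners alike. Rpl7l1, a nucleolar relative of Rpl7, was the steadiest member in raw level, with 145 to 202 CPM in IL27v libraries and 113 to 201 CPM in EV libraries, an SD of 0.21 on the log2 scale, and r = 0.114 with the core median. Rps27l, a p53 target in human cells, had r = 0.935 with the core median and 0.61 with docetaxel (adjusted p = 0.39). Rpl36al had r = 0.898, and no call. Rps27rt had r = 0.365, and its 22.6 to 112 CPM in IL27v and 26.7 to 175 CPM in EV libraries cannot be told apart from Rps27 reads by the coding sequence. Rpl39 had 60.7, 188 and 398 CPM as lowest, median and highest in IL27v and 128, 231 and 519 CPM in EV libraries, while Rpl39l did not exceed 64 counts in any library. Rps19bp1 had 0.97 with docetaxel (adjusted p = 0.24).

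Genes around the ribosome moved with the core to different degrees. Over 23 libraries the core median had r = 0.916 (rho = 0.849) with the mean log2 level of 22 translation factors and other genes known to carry the same start motif, 0.921 (0.841) with 78 mitochondrial ribosomal protein genes, and 0.881 (0.865) with 10 snoRNA host genes. Without the 2 libraries farthest from the median these were 0.875, 0.878 and 0.832. Within the IL27v libraries alone, without the 2 farthest, they were weaker, at 0.633, 0.512 and 0.59. Within the EV libraries alone they were 0.904, 0.939 and 0.915. A list mean can hide single genes. Over the 23 libraries, r with the core median was 0.948 for Rack1, 0.861 for Eef1b2 and 0.514 for Eef1a1. It was -0.146 for Pabpc1, -0.351 for Eif4b, -0.369 for Npm1 and -0.456 for Eif3e. Genes that make ribosomes rather than compose them did not follow as lists. For them r was -0.04 with 12 RNA polymerase I genes and -0.24 with 54 ribosome biogenesis genes. With 25 genes of mTOR and MYC control r was -0.19. Singly, r was 0.885 for Eif4ebp1 and 0.425 for Myc, against -0.514 for Larp1 and -0.419 for Mtor. None of the 22 translation factor genes was called in a comparison of vector or exposure. With docetaxel 6 of 78 mitochondrial ribosomal protein genes rose, against 1.76% of all genes, among them Mrpl34 (3.09 ± 0.57, adjusted p = 0.014) and Mrpl52 (2.46 ± 0.50, adjusted p = 0.020), with a median of 0.48 over the list. In the same comparison rose 2 of 54 biogenesis genes, Rrp9 (2.10 ± 0.44, adjusted p = 0.024) and Nhp2 (1.62 ± 0.39, adjusted p = 0.046), 1 of 19 other initiation factor genes, Eif6, which keeps the subunits apart (1.84 ± 0.37, adjusted p = 0.020), and 3 of 25 in the mTOR and MYC list, Akt1s1, Ddit4 and Myc (1.07 ± 0.24, adjusted p = 0.031). Between vectors, where 2.28% of all genes were called higher and 0.671% lower, 2 of 25 mTOR and MYC genes (Ddit4 and Akt1s1), 2 of 78 mitochondrial ribosomal protein genes (Mrpl34 and Mrpl52) and 1 of 10 snoRNA hosts (Epb41l4aos) rose, and Mrpl1 fell by 0.42. With the muscle and Ngp pattern as a term no gene in the table was called between vectors, in a fit where few libraries tell vector and pattern apart.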

How the data were processed

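The deposited table gives per-gene counts for 23 mouse libraries. The deposited values were taken as estimated counts: they are whole numbers, but for 143 genes every library has 1 identical value above 0. The build was GRCm38, and the tools included HISAT2, per the submitters' processing notes, which also name StringTie, cutadapt and DESeq2 without versions. No source used here gives the counting step or its use of strand. Libraries were stranded poly(A) libraries from RNA with an integrity number of at least 8, per the labels' protocols.

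Counts were analysed as deposited with edgeR 4.0.16 (R 4.3.3, limma 3.58.1): filterByExpr kept 24440 genes, TMM scaling was used, and 1 quasi-likelihood model held the 12 group means, with 11 residual degrees of freedom. P-values were adjusted over all 24440 genes by Benjamini-Hochberg, at 0.05. CPM values are TMM-scaled, and logs add 0.5 CPM. The biological coefficient of variation was 0.62. No pair of libraries held identical values (r between libraries 0.896 to 0.992). DESeq2 1.42.0 and further scalings, filters, models, trend removals and left-out libraries were tried as alternatives. Code was tested on simulated data.

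Gene symbols, lengths and GC content came from GENCODE vM21, of the same build. Named genes were the called members, a set of members listed for their known roles, all paralogues, the 5 highest and lowest per length, the 5 most and least variable, and up to 4 genes of each other list by p. The members and lists were chosen with earlier results of these data known. Sets of libraries were drawn from Ngp (at least 5 CPM) and the muscle sum (at least 100 CPM). Intervals and floors (3 counts, 95% level) cover counting error only. A few named genes are not reported here.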

Additional observations from a re-analysis of the deposited data

Results flagged for a closer look

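The vector by exposure difference for cabozantinib plus IL-27 passed the threshold for Rplp2, at 6.41 on the log2 scale, and for Rpl36, at 7.83, so both stand out by a test of the difference between IL27v and EV tumours itself. The low libraries on both sides of that test were the Ngp-positive ones, and the 2 patterns cannot be told apart. No group held the 4 libraries needed to look for a single library far from its group.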

How the results depend on the processing

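Across 41 results, 16 alternatives other than left-out libraries gave 593 values, of which 492 kept their direction and side of the threshold (or stayed within 1.5 times or 1 SD), 44 moved, 31 weakened and 26 strengthened. No called value changed sign, but 3 medians over the members did, by less than the spread between replicates: that of the vectors in media, at 0.00834 with the replicate block, that of the vectors, at 0.0712 with the muscle and Ngp pattern as a term and without the first IL27v docetaxel library, and that of anti-PD-L1, at -0.151 with that term. Depth limits Rpl3l and Rpl39l, at 0 in some libraries. The cause of the changes below was not tested.

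With no filter on low counts, the called members were 6 for the vectors (1631 of all 33123 genes), 30 for cabozantinib (948) and 25 for docetaxel (1843). They were 5 for anti-PD-L1 (506), 4 for cabozantinib plus IL-27 (353), 36 for ex vivo IL-27 (1093) and 9 for the vectors in media (1135). Over the 5 interactions they were 38, where each interaction had between 262 and 1275 called genes. DESeq2 called 5 with cabozantinib, 10 with docetaxel, 5 with ex vivo IL-27, 3 for the vectors in media and 8 for the interactions. Within IL27v tumours DESeq2 called 11 with cabozantinib and 8 with docetaxel, and its numbers among all genes there are not given here. Over core genes only, the vector count was 0. The additive model left 0 for docetaxel, as did leaving out the library with the most ribosomal RNA. With the muscle and Ngp pattern as a term the count was 0 for the vectors and 0 for docetaxel, also without the first IL27v docetaxel library. Removing the GC and length trends gave 4 for the interactions, where each interaction had between 0 and 311 called genes.

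Replicate numbers did not pair the libraries: over 55 pairings of same-numbered libraries the correlation of deviations ranged from -0.671 to 0.517, and 13 were over 0.1. With the replicate number as a block, 4 members were called with docetaxel, among 289 of all genes. Among the interactions 1 was called, where each had between 0 and 256 called genes. With the block and the GC trend removed together, 2 were called with docetaxel, among 149 genes. Then 1 was called among the interactions, where each had between 0 and 189 called genes. Within IL27v tumours the block left 1 with cabozantinib and 1 with docetaxel, and the numbers among all genes there are not given here. The trend removals with length or block and the set term without a library were chosen after seeing the data.

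When each library was left out in turn, the count ranged from 0 to 1 for the vectors, 0 to 9 for cabozantinib, 0 to 17 for docetaxel, 0 to 33 for ex vivo IL-27, 0 to 1 for the vectors in media and 0 to 11 for the interactions, and was 0 throughout for anti-PD-L1 and cabozantinib plus IL-27. The median member ranged from -0.356 to -0.111 for the vectors, 0.335 to 0.92 for cabozantinib, 0.212 to 0.803 for docetaxel, -0.172 to 0.389 for anti-PD-L1, 0.0898 to 0.562 for cabozantinib plus IL-27, 0.243 to 1.13 for ex vivo IL-27 and -0.508 to 0.329 for the vectors in media. A group left with 1 library was assumed to vary like the others. The share of all genes called in these fits is not given here, so the counts of members have no background beside them.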
